A study of Mus musculus with 146 samples.

Results

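The genes described here are 10 genes of lactate, pyruvate and glucose use, namely Ldha, Ldhb, Ldhc, Pkm, Hk1, Hk2, Pdha1, Slc2a1, Slc2a3 and Slc16a1, out of 52605 gene symbols measured in single germ cells of the newborn mouse ovary. They were chosen by name, and their levels were read in all but 1 of 146 cells. A cell entered when its Ddx4 level (the germ cell RNA helicase also called Vasa) was at least 1 TPM, a unit that gives the share of a gene in the RNA of a cell after division by transcript length. The cell left out had a Ddx4 level of 0, and the lowest level among the cells kept was 7.49 TPM. All cells came from C57/BL6J female pups at postnatal day 0.5 for which no treatment is named, from 5 ovaries of 1 litter, and were picked by hand after trypsin digestion. In the mouse, primordial follicles form around birth. No label gives the animal of a cell, so all cells count as 1 sample, and no test was run on levels, shares or ratios. Each interval given beside a share is the 95% Clopper-Pearson interval, which is exact and holds no more than the error of counting cells.

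Some of the cells may have been sequenced 2 times. Among 10585 pairs of cells, 7 pairs had nearly the same levels, with a Pearson's r of log2(TPM + 1) over 11959 coding genes between 0.989 and 0.996, against 0.812 at most in any other pair. The chi-square of their reads per degree of freedom, which is near 1 when reads differ by sampling alone, was 1.59 to 4.31, against 199 or more in the next 5 pairs by r. The labels list them as separate cells, and both cells of each pair fell in cluster 2, 1 of 3 clusters rebuilt from the data. Counts of cells and intervals may therefore count a cell 2 times. Without the later-numbered cell of each pair, cluster 2 had 88 cells instead of 95. The clusters, and the order of cells used below, were kept as made with all cells and were not rebuilt. Clusters 1 and 3 and the ratios between them therefore could not change. For the 8 of the 10 genes with a ratio, no ratio between clusters moved from one side of 1.5-fold to the other. Some counts and ratios are also given without these 7 cells. Any other count over all cells or over cluster 2 includes them and may be lower by up to 7 without them.

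Growing oocytes are known for poor use of glucose and for living on pyruvate, part of which the surrounding granulosa cells make and pass on. Lactate dehydrogenase interconverts pyruvate and lactate. It is a tetramer of subunits encoded by Ldha and Ldhb, and the germ cell subunit encoded by Ldhc is best known from sperm. Slc2a1 and Slc2a3 encode the glucose transporters GLUT1 and GLUT3. Hk1 and Hk2 encode the hexokinases that trap glucose in the cell. Pkm encodes pyruvate kinase, which makes pyruvate in the last step of glycolysis, Slc16a1 encodes the monocarboxylate transporter MCT1, which moves lactate and pyruvate across the membrane, and Pdha1 encodes the X-linked catalytic subunit of pyruvate dehydrogenase.

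Ldhb lies at chr6:142490249-142507957 on the minus strand, whereas Ldha (chr7:46841475-46855627) and Ldhc (chr7:46861203-46878142) are neighbours on the plus strand (GRCm38, GENCODE M21). The bases just before the transcription start of Ldhb and of the pair of Ldha starts are shown because these genes encode subunits of 1 enzyme and differed in level. RefSeq (GRCm38.p6) gave promoters for 9 of the 10 genes. Each run holds 250 bases read 5′ to 3′ on the strand of the gene, at chr6:142507958-142508207 (minus) for Ldhb, chr7:46845554-46845803 (plus) for the upstream Ldha start and chr7:46846832-46847081 (plus) for the downstream one. Capitals mark E-box letters (CANNTG, a palindromic pattern that reads alike on both strands, with N for any base).
Ldhb: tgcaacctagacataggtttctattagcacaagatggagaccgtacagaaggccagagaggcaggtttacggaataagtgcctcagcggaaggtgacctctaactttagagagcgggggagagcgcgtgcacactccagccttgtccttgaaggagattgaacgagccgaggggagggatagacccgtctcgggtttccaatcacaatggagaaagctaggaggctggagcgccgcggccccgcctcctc
Ldha upstream start: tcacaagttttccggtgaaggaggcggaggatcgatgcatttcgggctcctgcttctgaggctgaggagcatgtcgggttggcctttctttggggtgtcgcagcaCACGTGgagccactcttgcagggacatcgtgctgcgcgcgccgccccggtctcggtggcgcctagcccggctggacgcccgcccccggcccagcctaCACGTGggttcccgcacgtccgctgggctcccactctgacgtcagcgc
Ldha downstream start: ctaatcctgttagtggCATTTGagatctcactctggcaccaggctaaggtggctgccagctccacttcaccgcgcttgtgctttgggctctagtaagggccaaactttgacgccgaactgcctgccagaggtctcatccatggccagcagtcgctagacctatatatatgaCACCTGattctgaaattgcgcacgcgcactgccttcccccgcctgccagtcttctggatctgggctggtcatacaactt
The window of Ldhb held 0 E-box matches, and each window of Ldha held 2. Of 18562 promoters of coding genes, 62.05% held at least 1 match in the same length. CACGTG, which is itself an E-box, occurred 2 times in the upstream Ldha window and in 6.92% of all promoters. The letters ACGTG were searched on both strands, so each CACGTG counted 2 times, 1 per strand. They occurred 5 times in the upstream Ldha window, 0 times in that of Ldhb and in 18.3% of all promoters. The letters TAATTG, searched on both strands, were found in 6.20% of all promoters and in neither gene. The Ldhb window was 56.4% G or C with 14 CpG, against medians of 56.4% and 11 over all promoters, and the upstream Ldha window was 67.2% G or C with 25 CpG.

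Between 4074810 and 26855273 reads of a cell were assigned to genes, with a median of 9498860. Germ cell markers summed to between 652 and 9197 TPM and were above 100 TPM in every cell kept. The 9 pregranulosa markers summed to at most 81.6 TPM with a median of 0.52, and Foxl2, the defining pregranulosa gene, reached 1 TPM in 5 cells. Markers of leukocytes did not exceed 55.998 TPM, while those of stroma and of endothelium reached 100 TPM in 3 cells each. Red blood cell markers reached 100 TPM in 56 cells and 325001 TPM in 1 cell of cluster 1. The cells were placed in 3 clusters rebuilt from 20 feature genes of meiosis and of oocytes, with 19, 95 and 31 cells in clusters 1, 2 and 3, and along an order given by the first principal component of the same genes. None of the 10 genes was used for this. Cluster 1 sits at the end where the meiotic genes Sycp2, Stag3 and Taf7l are high. The clusters are referred to by number, and since they were rebuilt, a difference from the study may come from that. Spike-in RNA, which is added to each lysate, had median levels of 10423, 12182 and 6375 TPM in clusters 1, 2 and 3, and the median number of genes with a read was 12424, 12231 and 14506. If each cell received the same amount, a lower spike-in level means more measured RNA per cell, so ratios are also given per spike-in TPM.

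Ldhb and Pkm were the leading genes of the 10. Pkm was the highest of them in 81 cells, Ldhb in 61 and Slc2a1 in 3, and Pkm in 74 without the 7 cells. The median level over all cells was 297 TPM for Pkm and 162 TPM for Ldhb, followed by 5.56 TPM for Slc16a1, 0.53 for Pdha1, 0.21 for Ldha and 0.034 for Slc2a3, and it was 0 for Ldhc, Hk1, Hk2 and Slc2a1. The genes below Slc16a1 had medians within 1 TPM of each other, far less than their spread over cells. In the plot of levels by cluster, Ldhb shows the widest separation of the clusters.

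**Figure D1:**
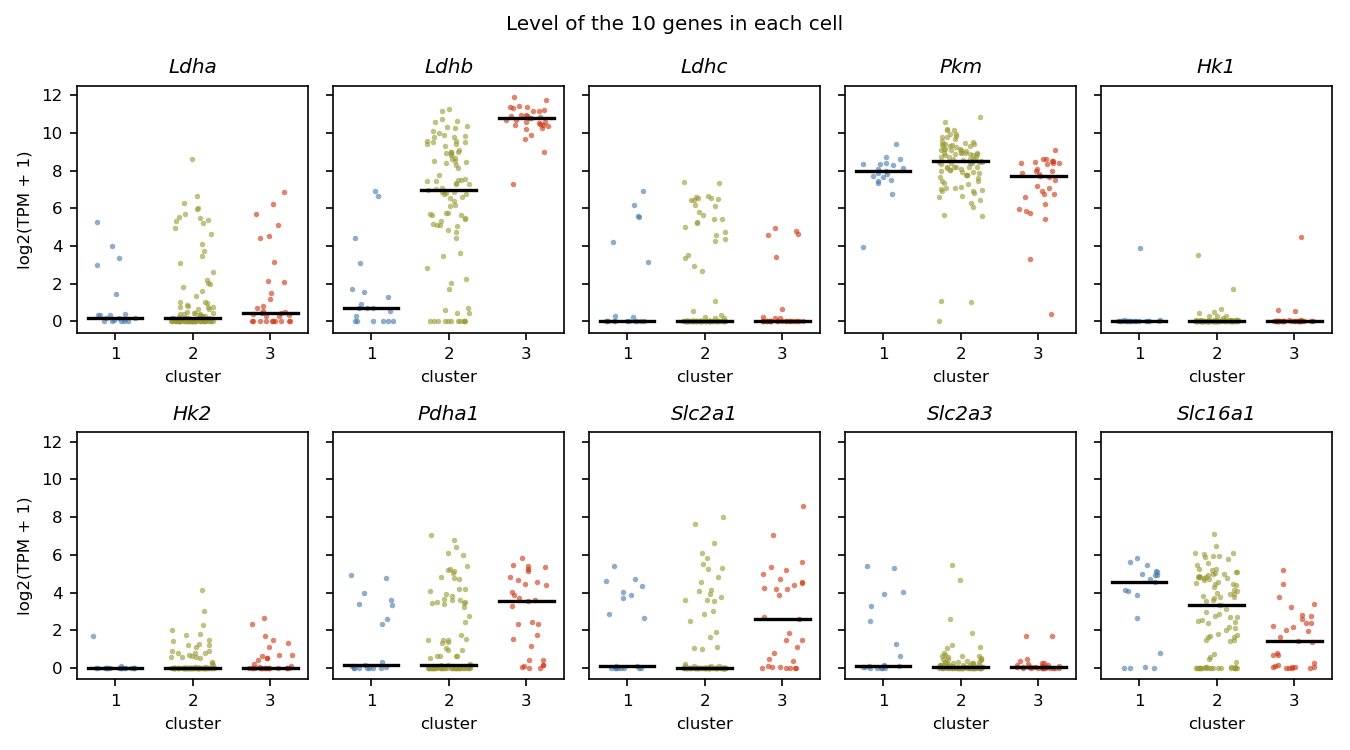
Level of each of the 10 genes, as log2(TPM + 1), in each cell kept (points) of clusters 1, 2 and 3, with the median as a black bar. Ldhb has medians of 0.64, 125.9 and 1784 TPM, Pkm stays high in each cluster, and Hk1 and Hk2 lie near 0 in nearly all cells.

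Among the lactate dehydrogenase genes, Ldhb was near 0 in most cells of cluster 1 and abundant in cluster 3. In cluster 1 its level ran from 0 to 120.8 TPM with a median of 0.64, and 6 of 19 cells were listed at 0. In cluster 2 it ran from 0 to 2503 TPM with a median of 125.9, and 54 of 95 cells were above 100 TPM (51 of 88 without the 7 cells). In cluster 3 it ran from 153.9 to 3820 TPM with a median of 1784, and 27 of 31 cells were above 1000 TPM. Every cell of cluster 3 was thus above every cell of cluster 1, while cluster 2 overlapped both. The ratio of means on the log2 scale, with 1 TPM added to each mean, was 4.62 from cluster 1 to 2 (SD of 34.7 TPM in cluster 1 and 505 in cluster 2), 2.34 from cluster 2 to 3 (SD of 787 TPM in cluster 3) and 6.96 from cluster 1 to 3, which is a 124.5-fold difference. Per spike-in TPM the last ratio was 7.80. Without cell 65, the highest of cluster 1, it was 7.72 in TPM. Without the 7 cells the ratios from cluster 1 to 2 and from cluster 2 to 3 were 4.70 and 2.26. A ratio of at least 1.5-fold (0.585 on the log2 scale) is called higher or lower here, which is a size and not a test. By that size 26.7% of the 11747 coding genes whose mean was 1 TPM or more were higher in cluster 3 than in cluster 1 and 36.6% were lower, and the median of all of them was -0.19 in TPM and 0.48 per spike-in TPM.

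Ldhb differed along the order within cluster 2 as well as between clusters. In 5 bins of 29 cells along the order its median was 0.64, 39.03, 121.03, 749.6 and 1789.8 TPM, and no cell of the last 2 bins was below 106.9 TPM. Across all cells kept its Spearman rho with the order was 0.88, which placed it 2nd among 7435 coding genes that were no feature genes and had 10 TPM or more on average, and without the 7 cells it was 0.89 and 1st. Within clusters 1, 2 and 3 rho was -0.03, 0.79 and 0.70, so the 19 cells of cluster 1 showed no trend. In an order made from the 2000 genes of highest variance, without the feature genes, rho was 0.85 and the rank again 2. These cells share 1 litter, and the TPM of a cell share 1 total. Its rho was 0.33 with the number of genes and -0.33 with the spike-in level, and -0.49 with the summed germ cell markers, which had medians of 4773, 5092 and 2420 TPM in clusters 1, 2 and 3. The 5 endothelium markers together had a rho of -0.42 with Ldhb and medians of 13.04, 3.42 and 0.41 TPM in the clusters in turn, carried by Pecam1, which reached 1 TPM in 67 cells, whereas Cdh5 and Kdr did so in 5 and 2. The part of these in the pattern was not tested.

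The genes whose levels across cells were most like that of Ldhb were Dppa3 (rho of 0.87), the maternal factor also called Stella, Tmsb10 (0.85), which encodes an actin-binding thymosin, Nlrp4f (0.84), Mphosph6 (0.84) and Gtsf1 (0.79), which acts in the piRNA pathway, out of 7447 coding genes. Zp3, the zona pellucida gene used among the features, reached 10 TPM in 47 cells. Each of these 47 cells had an Ldhb level of at least 153.9 TPM, with a median of 1485. Another 63 cells had Ldhb at 10 TPM or more without Zp3 at that level, 35 had neither, and 0 had Zp3 alone, which became 57, 34 and 0 without the 7 cells. Ldhb at 10 TPM or more was thus found in more cells than Zp3 and included all of those with Zp3. Gdf9, an oocyte gene among the features, reached 10 TPM in 47 cells with Ldhb at that level. It did so in 1 cell without, where Ldhb was at 3.77 TPM. Sohlh1, an early oocyte transcription factor and also a feature gene, reached 10 TPM in 27 cells without Ldhb at that level (26 without the 7 cells), while 3 cells had Ldhb without Sohlh1.

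**Figure D2:**
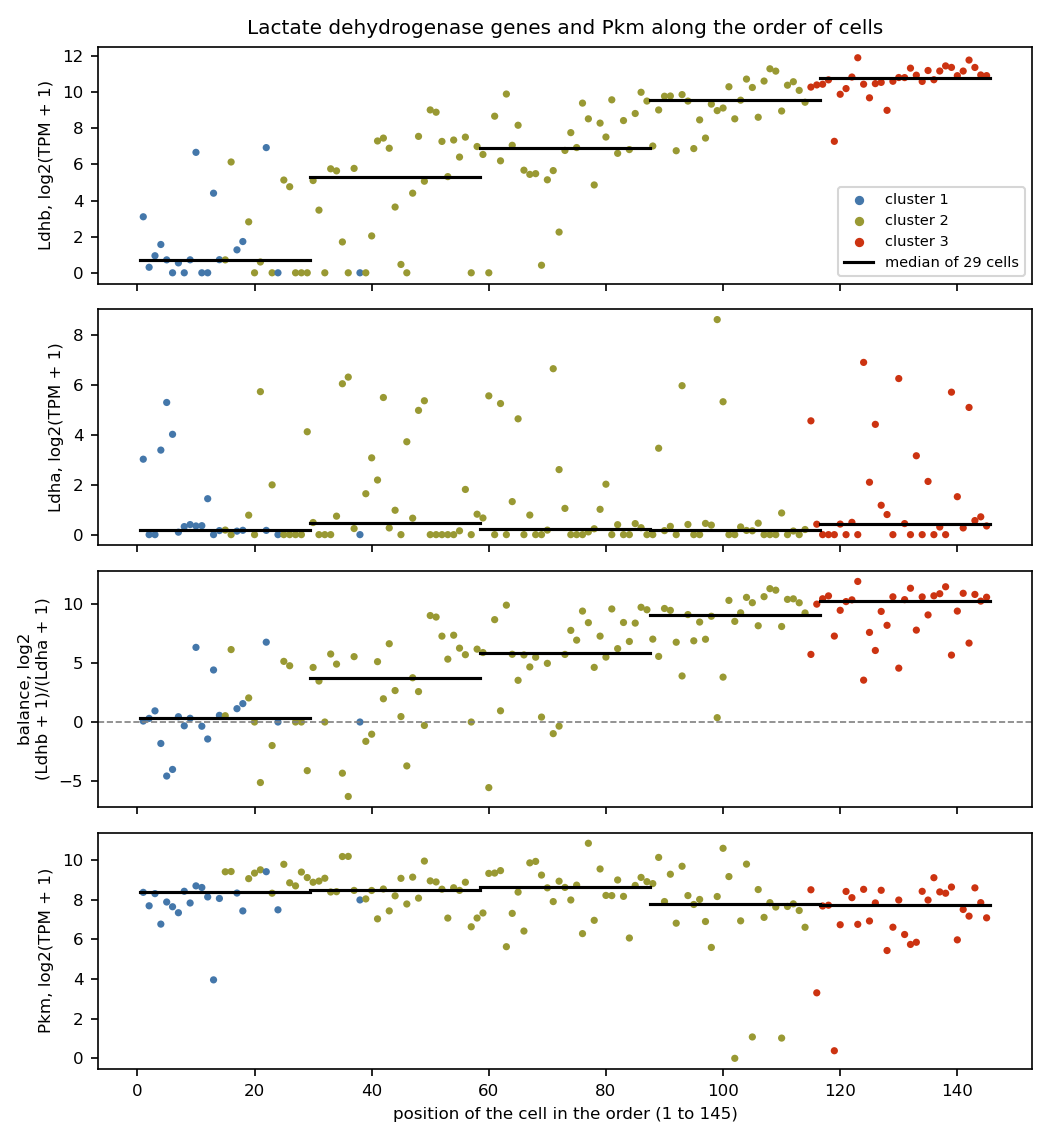
Level of Ldhb, Ldha and Pkm as log2(TPM + 1), and the log2 balance of Ldhb to Ldha, in each cell kept, placed by its position in the order and coloured by cluster, with the median of each bin of 29 cells as a black line. The Ldhb median is 0.64 TPM in the first bin and 1789.8 TPM in the last while that of Ldha stays below 1 TPM in each bin.

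Ldha, the subunit typical of glycolytic tissues, was scarce in most cells and present in a few. Its median was 0.13, 0.15 and 0.36 TPM in clusters 1, 2 and 3, and 54 cells were listed at 0. It reached 10 TPM in 23 cells (15.9%, interval 10.3 to 22.8), of which 2, 15 and 6 lay in clusters 1, 2 and 3. Without the 7 cells these were 22 cells (15.9%, interval 10.3 to 23.1), of which 14 lay in cluster 2. The highest level was 389 TPM in cell 37 of cluster 2, followed by 117.8 TPM in a cell of cluster 3. Means of 3.85, 11.4 and 11.01 TPM (SD 9.26, 43.2 and 26.1) gave a log2 ratio of 1.31 from cluster 1 to 3, which rests on these few cells: it was 2.03 without cell 98 of cluster 1, and 0.52, less than 1.5-fold, when log2(TPM + 1) was averaged before taking the difference. The rho of Ldha with the order was 0.01 and with Ldhb -0.03. Its most similar genes were Tmem110 (0.37), Mtap (0.35), Hmgxb3 (0.33), Eef2 (0.33) and Aste1 (0.33), all weak.

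The balance of both subunits, taken per cell as the log2 ratio of Ldhb to Ldha with 1 TPM added to each, leaned further to Ldhb along the order. The clusters in turn had a median of 0.31, 5.73 and 10.2, with SD of 2.86, 4.31 and 2.20. Over all cells it ran from -6.30 to 11.9 with a median of 6.13. Ldhb was above Ldha in 120 cells (82.8%, interval 75.6 to 88.5), Ldha was above Ldhb in 18 and both were listed at 0 in 7. Without the 7 cells of like levels Ldhb was above Ldha in 82.6% (interval 75.2 to 88.5), Ldha was above Ldhb in 17 cells and both were listed at 0 in 7. By cluster Ldhb was above Ldha in 11 of 19 cells (57.9%, 33.5 to 79.7), 78 of 95 (82.1%, 72.9 to 89.2; 72 of 88 without the 7 cells) and 31 of 31 (100%, lower limit 88.8%). No cell of the last 2 bins had more Ldha than Ldhb in TPM, although 1 cell had more reads on Ldha. In the 23 cells with Ldha at 10 TPM or more Ldhb had a median of 174 TPM, against 159 TPM in the other cells, so the Ldhb medians of both sets were close. Of the summed TPM of Ldha, Ldhb and Ldhc, Ldhb made up medians of 12.4%, 98.9% and 99.9% in the clusters in turn, over the 140 cells with a level for any of them.

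**Figure D3:**
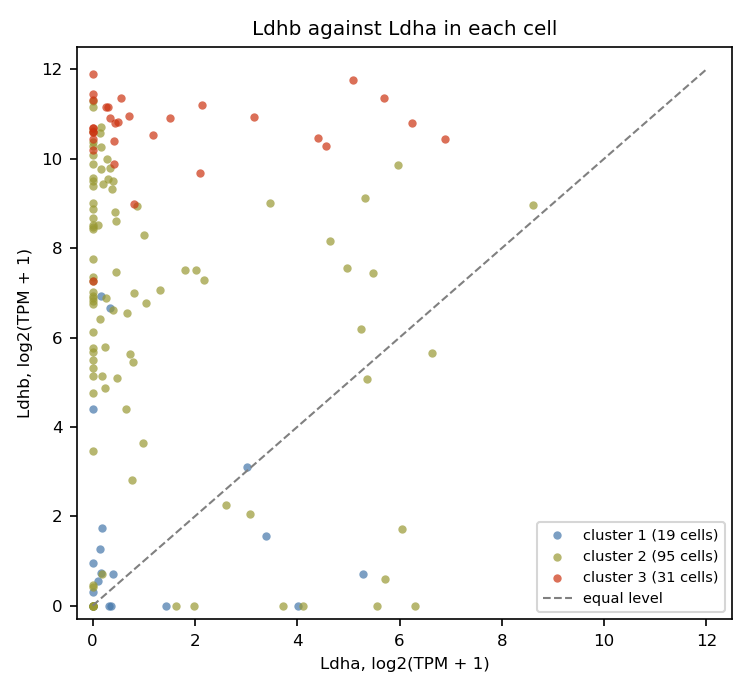
Ldhb against Ldha, both as log2(TPM + 1), in each cell kept, coloured by cluster, with a dashed line of equal levels. All 31 cells of cluster 3 lie above the line, and 18 cells, 6 of cluster 1 and 12 of cluster 2, lie below it.

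The deposited length of a gene in each cell was short for several of these genes, but the deposited TPM were not reads divided by that length. Among cells with at least 10 reads on the gene the median length was 113.4 bases for Ldha, 397 for Ldhb, 290 for Ldhc and 218 for Pkm, whereas the shortest GENCODE M21 transcripts of these genes have 399, 437, 767 and 356 bases. Hk1 had a median of 202 bases in the 4 cells with that many reads, against 254 for its shortest transcript, and Slc2a1 was below its shortest transcript in 7 of 54 cells and Hk2 in 2 of 9. In cell 37, Pkm had 5316 reads at 286 TPM and Ldha had 4745 reads at 389 TPM. Slc16a1, listed at 4426 bases in every cell, had 601 reads at 16.8 TPM. Division by the short lengths listed for Pkm and Ldha would give far higher TPM beside Slc16a1. The length behind each TPM was not measured here. In CPM, the reads of a gene as a share of those of the cell before division by length, Ldhb had means of 11.4, 344 and 1601 in clusters 1, 2 and 3 and Ldha 3.04, 13.8 and 15.01. Per kilobase of the longest coding transcript these were 8.77, 264 and 1228 for Ldhb and 1.67, 7.62 and 8.27 for Ldha, so the balance leaned to Ldhb on this scale too. Reads on near-identical copies were read for the copies found in the files, namely the only 1 of Ldhb, 2 of 12 of Ldha and 0 of 6 of Pkm, and the other copies were not measured here. Gm5514, which shares 98.004% of 1002 bases with Ldhb, had 1164 reads against 802690 on Ldhb over all cells, but it was listed above 0 in 10 cells and reached 1358 TPM in 1 cell of cluster 3. The 2 copies of Ldha had 3 reads together.

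Ldhc, the germ cell subunit, was found in a minority of cells and at lower levels in cluster 3. It reached 10 TPM in 5 of 19, 23 of 95 (23 of 88 without the 7 cells) and 4 of 31 cells of clusters 1, 2 and 3, and 96 cells were listed at 0. The highest level was 167 TPM, in a cell of cluster 2, and in cluster 3 no cell was above 30.1 TPM. Means of 16.2, 16.1 and 3.71 TPM (SD 32.3, 34.7 and 9.0) gave a log2 ratio of -1.87 from cluster 1 to 3 and -1.41 per spike-in TPM, with a range from -2.17 to -1.29 when each cell was left out in turn. Without the 56 cells that had 100 TPM or more of red blood cell markers it was -0.77. Ldhc exceeded Ldhb in 15 cells and Ldha in 38. The genes most like it were Capzb (0.40), Rpp30 (0.35), Zfp72 (0.33), Mageb16 (0.33) and Sdhd (0.31).

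Pkm, the source of pyruvate in glycolysis, was present in nearly every cell. It reached 10 TPM in 140 cells and was below 100 TPM in 19. Its medians were 254, 365 and 211 TPM in clusters 1, 2 and 3, with ranges of 14.6 to 683, 0 to 1846 and 0.30 to 553 TPM that overlapped throughout. The log2 ratio of means was 0.68 from cluster 1 to 2, where 25.2% of coding genes were higher by this size, and -1.02 from cluster 2 to 3, where 31.6% were lower (0.65 and -0.98 without the 7 cells). Per spike-in TPM the ratio from cluster 2 to 3 was 0.06, so the lower share of RNA in cluster 3 did not come with a lower level per spike-in RNA. From cluster 1 to 3 the ratio was -0.33 in TPM and 0.74 per spike-in TPM, which differ in sign, and it was -0.64 when log2 values were averaged first. Pkm had a rho of -0.50 with the share of mitochondrial reads, whose medians were 5.22%, 6.21% and 7.22% in the clusters in turn, and the part of this was not tested. The counterpart in liver and red blood cells, Pklr, had a mean of 1.13 TPM.

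The hexokinases and glucose transporters were low or absent in most cells. Hk1 reached 1 TPM in 4 cells, with a highest level of 21.3 TPM in a cell of cluster 3, and Hk2 in 19, with a highest level of 16.6 TPM in a cell of cluster 2. Both had means below 1 TPM, so no ratio was taken. Either reached 1 TPM in 23 cells. Reads on Hk1 and Hk2 came to 1768 and 1738 over all cells, so at this depth absence in a cell cannot be told from a low level.

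Slc2a1 was higher in cluster 3 and rested in part on a few cells. It reached 10 TPM in 7 of 19, 17 of 95 (16 of 88 without the 7 cells) and 14 of 31 cells of clusters 1, 2 and 3, with medians of 0.082, 0 and 5.09 TPM. Its rho was 0.31 with the number of genes and -0.37 with the spike-in level, and the part of these was not tested. Its log2 ratio of means (8.54, 10.1 and 27.4 TPM, with SD of 11.9, 35.4 and 71.7) was 1.58 from cluster 1 to 3. The 3 cells with the highest levels, cell 10 at 389 TPM, cell 14 at 253 and cell 67 at 198, were the 3 cells with the lowest sum of germ cell markers (1002, 933 and 652 TPM). The ratio was 0.78 without cell 10 alone and also without all 3 of them, since the other 2 lie in cluster 2, and it was 0.72 in CPM. The oocyte genes Gdf9 (rho of 0.40) and Zp3 (0.39) were the most like Slc2a1, followed by Th (0.39), Rreb1 (0.39) and Hddc3 (0.38), in cells that share 1 litter and with Gdf9 and Zp3 among the feature genes. Without the 7 cells Zp3 (0.365) and Th (0.371) fell below Rreb1 (0.384) and Hddc3 (0.382).

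Slc2a3 and Slc16a1 were lower in cluster 3. Slc2a3 reached 10 TPM in 4 cells of cluster 1, 2 of cluster 2 and 0 of cluster 3, where the highest level was 2.24 TPM. Its means were 6.58, 0.92 and 0.20 TPM (SD 12.7, 5.01 and 0.54), a log2 ratio of -2.66 from cluster 1 to 3, while its medians were 0.085, 0.034 and 0.019 TPM, so the ratio rests on few cells of cluster 1. Its size moved with the processing, from -0.70 with a pseudocount of 10 TPM to -4.48 with 0.1 TPM, with -1.23 when log2 values were averaged first. Slc2a1 and Slc2a3 were together at 1 TPM or more in 7 cells, and neither reached it in 82 (77 without the 7 cells). Slc16a1 reached 10 TPM in 13 of 19, 46 of 95 (42 of 88 without the 7 cells) and 3 of 31 cells, with medians of 22.5, 9.22 and 1.71 TPM and highest levels of 55.6, 136.7 and 36.3 TPM. The clusters overlapped, with cells listed at 0 in each of them. Its log2 ratio was -2.07 from cluster 1 to 3 and -1.28 per spike-in TPM. Its deposited length was 4426 bases in every cell, that of its only GENCODE M21 transcript.

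Pdha1, which feeds pyruvate into the citric acid cycle, was detected more often in cluster 3. It reached 10 TPM in 4 of 19, 23 of 95 (21 of 88 without the 7 cells) and 16 of 31 cells, with medians of 0.13, 0.11 and 10.9 TPM and ranges from 0 to 29.1, 0 to 131.7 and 0 to 56.1 TPM. Its log2 ratio of means was 1.21 from cluster 1 to 3 and 2.30 per spike-in TPM. Its rho was 0.37 with the number of genes, which is highest in cluster 3, and -0.33 with the spike-in level, and the part of these in its detection was not tested. Pdha2, the retrogene of Pdha1 on an autosome that is known from spermatogenesis, was lower in cluster 3 instead, with means of 19.8, 4.42 and 0.31 TPM and a log2 ratio of -3.99. At 1 TPM, 51 cells held Pdha1 alone, 25 Pdha2 alone, 17 both and 52 neither, and without the 7 cells these were 50, 24, 16 and 48. Exons of Map3k15 overlap those of Pdha1 (100% over 426 bases). Map3k15 had 46092 reads against 28274 on Pdha1, and since the counting is not stated to use strand, the reads of both cannot be told apart with certainty.

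Ratios could be taken for 8 of the 10 genes. From cluster 1 to 2, 4 of them were higher and 1 lower, against 25.2% and 21.1% of all coding genes, and from cluster 2 to 3, 2 were higher and 4 lower, against 16.3% and 31.6%. Per spike-in TPM the counts were 4 higher and 1 lower, against 20.6% and 28.6% of all coding genes, and 4 higher and 2 lower, against 51.9% and 9.24%, so that 4 of 8 higher from cluster 2 to 3 lay near the background. Some of the calls in TPM rest on single cells. From cluster 2 to 3 Slc2a1 had a ratio of 1.36 and of 0.56 without cell 10, Slc2a3 had -0.68 and -0.30 without 1 cell of cluster 2, and Pdha1 had 0.57 and 0.75 without 1 cell of cluster 2. From cluster 1 to 2 Pdha1 had 0.65 and 0.46 without 1 cell. From cluster 1 to 3, 4 of them were higher (Ldhb, Slc2a1, Ldha and Pdha1), 3 lower (Ldhc, Slc16a1 and Slc2a3) and Pkm neither, against a background of 26.7% higher and 36.6% lower. These calls depend on the scale for 2 genes. Per spike-in TPM, where 46.1% of all coding genes were higher and 18.7% lower, Pkm was also higher (0.74), and with log2 values averaged first Pkm was lower (-0.64) and Ldha neither (0.52). Over 45 pairs of the 10 genes rho across cells ran from -0.27 (Ldhb and Pkm) to 0.29 (Ldhb and Pdha1) with a median of 0.03. In these sparse levels such values are weak, and the genes did not vary as a block.

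The other genes of the pathway were read from a list of 71, and 55 of them passed the minimum mean of 1 TPM. From cluster 1 to 3, 18 were higher, 20 lower and 17 neither (32.7% and 36.4%, beside 26.7% and 36.6% of all coding genes), with a median log2 ratio of 0.08. Per spike-in TPM 27 were higher and 11 lower, beside 46.1% and 18.7% of all coding genes, and the median was 0.55, beside 0.48 for all genes, so the split of the list rests on the scale. In TPM the list as a whole thus lay near the background, and its groups differed in their counts.

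The genes of pyruvate entry into mitochondria were mostly lower in cluster 3 in TPM. Of 14 measured genes 10 were lower and 1 was higher, beside 36.6% and 26.7% of all coding genes. The median log2 ratio was -1.003 beside -0.19 for all genes. Per spike-in TPM 6 were lower and 2 higher, beside 18.7% and 46.1% of all coding genes, with a median of -0.46 beside 0.48. The lower call of Pdk2 rests on 1 cell, with a ratio of -0.90 and of -0.49 without cell 50. Dld, the dehydrogenase shared by the 2-oxo acid complexes, had means of 525, 283 and 81.04 TPM (ratio of -2.68). Dlat, the acetyltransferase of pyruvate dehydrogenase, had 146.4, 101.2 and 35.5 TPM (-2.01). Pdhb, the partner of Pdha1 in the catalytic unit, had 317, 202 and 145.9 TPM (-1.12, and -0.35 per spike-in TPM). Also lower were Pdhx (-1.07), Pcx (-1.49), which carboxylates pyruvate, Pdpr (-1.63) and Pdp1 (-0.94), which per spike-in TPM had -0.56, -0.80, -0.78 and -0.32. Mpc1, a subunit of the mitochondrial pyruvate carrier, was at -0.60, at -0.51 without cell 86 and at 0.17 per spike-in TPM, so that its direction rests on the scale. Its partner Mpc2 had means of 177, 270.3 and 252 TPM (0.51, and 1.25 per spike-in TPM, which is past 1.5-fold). Pdk1, a kinase that inhibits pyruvate dehydrogenase, was higher with means of 28.1, 84.9 and 46.3 TPM (0.70). Pdha1 was thus higher in cluster 3 where Pdhb, Pdhx, Dlat and Dld of the same complex were lower.

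The other genes of glycolysis, with Pklr among them, were mixed. Of 14 measured genes 2 were higher and 6 lower, beside 26.7% and 36.6% of all coding genes, and per spike-in TPM 4 were higher and 2 lower, beside 46.1% and 18.7%. Of the 6 lower calls 3 rest on 1 cell each. Pfkl had a ratio of -0.80 and of 0.90 without cell 26, Gapdhs -0.90 and -0.46 without 1 cell, and Eno4 -0.99 and -0.57 without 1 cell. Gpi1 (84.1, 148 and 179 TPM, ratio of 1.08) and Tpi1 (4.63, 9.29 and 20.3 TPM, 1.92, and 2.66 without 1 cell of cluster 1), both isomerases, were the higher genes. Gapdh had 211, 78.1 and 117.6 TPM (-0.84, and 0.13 per spike-in TPM, so that its direction rests on the scale), Pfkm, a phosphofructokinase, 22.6, 8.67 and 4.57 TPM (-2.08) and Eno3, an enolase, 33.8, 13.8 and 4.74 TPM (-2.60, and -1.97 without 1 cell of cluster 1). Of the 7 genes that control fructose bisphosphate 5 were higher and 1 lower in TPM, beside 26.7% and 36.6% of all coding genes, and 6 were higher and 1 lower per spike-in TPM, beside 46.1% and 18.7%. Tigar, a fructose bisphosphatase that limits glycolysis, had means of 7.53, 31.3 and 51.2 TPM (2.61). Pfkfb3, which raises phosphofructokinase activity, had 4.13, 2.86 and 13.1 TPM (1.46, and 3.41 without 1 cell of cluster 1), and Pfkfb2 had 19.8, 8.66 and 3.32 TPM (-2.27).

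Of 7 measured genes of the pentose phosphate pathway 4 were higher and 1 was lower in TPM, beside 26.7% and 36.6% of all coding genes, and 6 were higher and 0 lower per spike-in TPM, beside 46.1% and 18.7%. The higher call of Rpia rests on 1 cell, with a ratio of 0.79 and of 0.21 without cell 10. G6pdx, the entry enzyme that makes NADPH, had means of 10.6, 16.6 and 75.04 TPM (2.71). Pgls, the next enzyme, had 114.2, 113.3 and 243 TPM (1.08), and Taldo1, the transaldolase, 143.5, 331 and 464 TPM (1.69), whereas Pgd, which follows Pgls, had 35.7, 33.96 and 16.4 TPM (-1.07, and -0.45 per spike-in TPM). Among the 5 measured regulators 4 were higher in TPM, beside 26.7% of all coding genes, and 5 per spike-in TPM, beside 46.1%, with Txnip, which restrains glucose uptake, at 139.5, 133.97 and 358 TPM (1.35), Hif1a, a hypoxia factor, at 37.4, 63.4 and 69.7 TPM (0.88) and its partner Arnt at 16.4, 16.7 and 28.5 TPM (0.77, and from 0.41 to 1.14 when each cell was left out in turn). Of 5 measured genes of lactate handling 1 was higher and 2 were lower on either scale. The shares of all coding genes were 26.7% and 36.6% in TPM and 46.1% and 18.7% per spike-in TPM. In TPM 2 of these 3 calls rest on 1 cell each, since Slc16a3 had a ratio of -2.78 and of 0.49 without 1 cell, and Emb 1.38 and 0.18 without cell 25. Bsg, the chaperone of MCT1, had the highest mean of the list over all cells kept, with 481, 456 and 325 TPM (-0.56, and 0.39 per spike-in TPM), although Dld was higher in cluster 1 and Taldo1 and Txnip in cluster 3. Of 3 measured glucose transporters outside the 10 genes 1 was higher in TPM, beside 26.7% of all coding genes, and 3 per spike-in TPM, beside 46.1%. Each had a mean below 3 TPM over all cells kept.

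**Figure D4:**
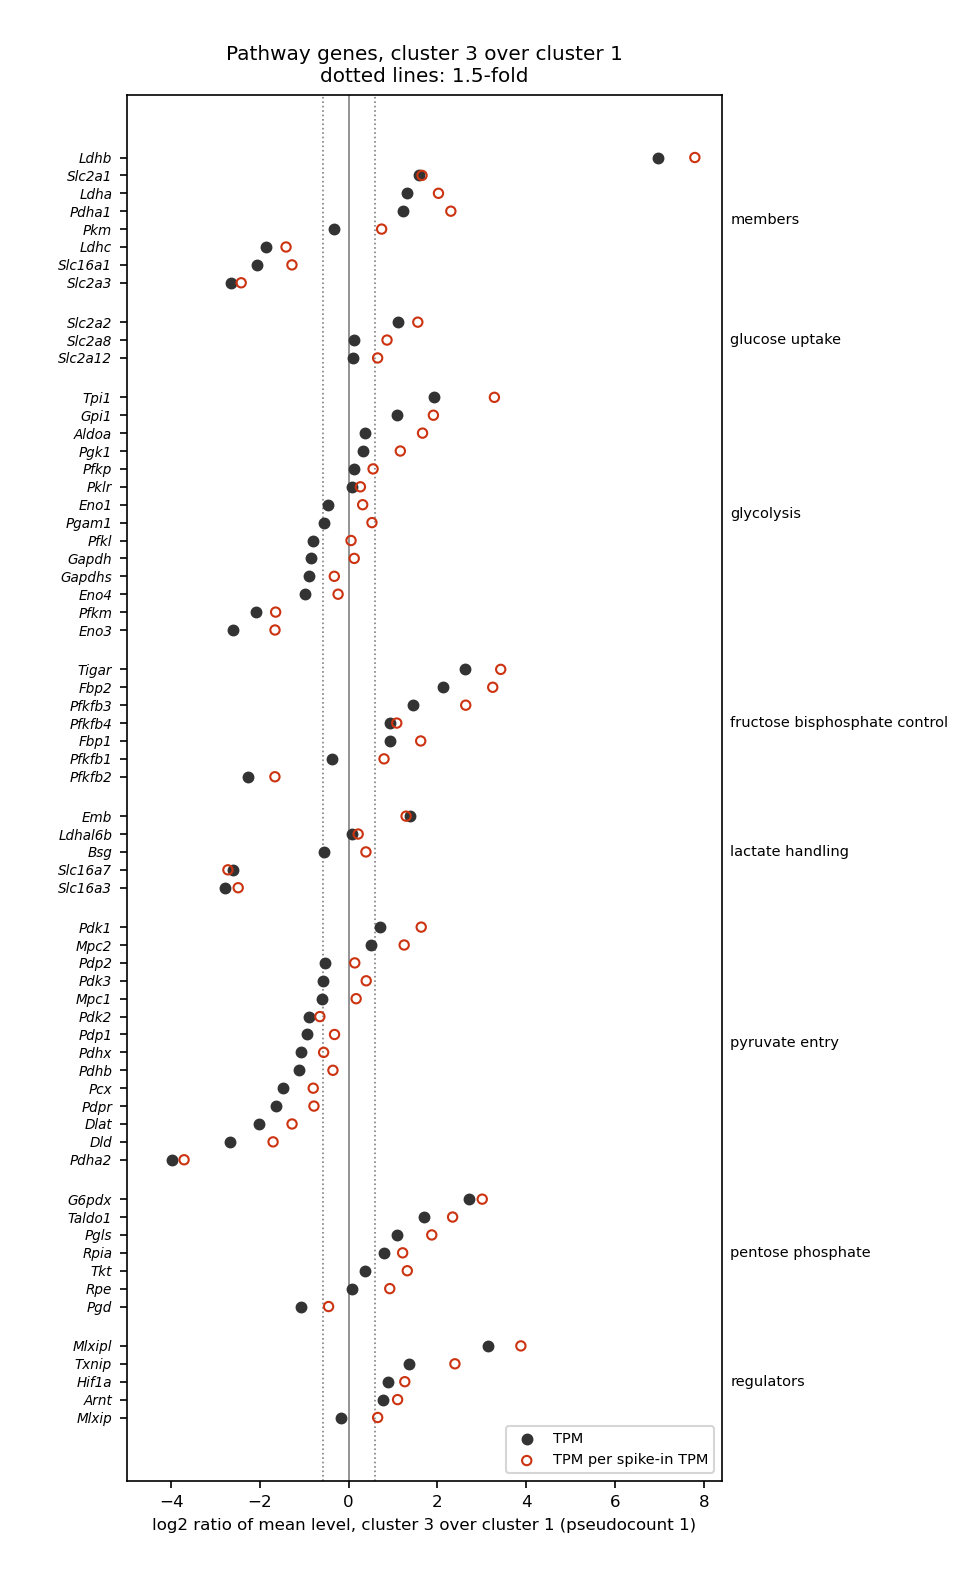
The log2 ratio of the mean level in cluster 3 over that in cluster 1 (pseudocount of 1) for 8 of the 10 genes and 55 genes of the pathway list, in TPM (filled) and per spike-in TPM (open), grouped by step, with dotted lines at 1.5-fold. Ldhb at 6.96 lies apart from the rest, pyruvate entry genes lie mostly to the left and most pentose phosphate genes to the right.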

How the data were processed

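RNA of 146 single cells was sequenced by Smart-seq2 with spike-ins. Per the labels the authors used FastQC and Salmon with mm10. Within a cell, the deposited TPM add up to 1 fixed total that includes 92 spike-ins. The deposited estimated counts of reads are not normalized and need not be whole, and the deposited length of a gene differs between cells. The annotation release is not given in the sources used here. All 10 genes were chosen, and the lists of pathway and marker genes made, with earlier results of these data known.

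Coding genes were matched by symbol to GENCODE M21. Clusters were rebuilt from TPM with Seurat 5.3.0 in R 4.3.3 (NormalizeData, ScaleData, principal components of 20 feature genes, 10 components, 20 neighbours, the lowest resolution giving 3 clusters). Means, log2 ratios with a pseudocount of 1 TPM, exact intervals and Spearman's rho were computed with pandas 2.3.3 and SciPy 1.17.1 in Python 3.11.15, and the ratio was tested on simulated data. Ratios were taken for genes with a mean of at least 1 TPM. Genes named are all 10, the pathway genes past 1.5-fold from cluster 1 to 3 and with 10 TPM or more on average in either, those with the highest means, and the 5 genes most like Ldhb, Ldha, Ldhc and Slc2a1. Mpc2, Pklr, the genes whose calls rest on 1 cell and the leading cells were named after their values were seen. No 2 cells had identical values, but 7 pairs were alike (r of 0.9 or more, chi-square over genes with 20 reads or more), so the number of cells behind a share may hold repeats.

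Alternatives were all 146 cells, a Ddx4 minimum of 10 TPM, leaving out cells by marker sums or 1 at a time, CPM, TPM over coding nuclear genes or per spike-in TPM, pseudocounts of 0.1 and 10, means of log2 values, other clusters, orders, bins and detection limits, and no filter or a mean of at least 10 TPM for the list. Reads per kilobase of transcript, adding Gm5514, leaving out the cell with most red blood cell RNA, the 3 cells with the lowest germ cell markers or the later-numbered cell of each such pair, and rho within clusters were added after the data were seen.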

Additional observations from a re-analysis of the deposited data

How the results depend on the processing

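The direction of the Ldhb ratios, of the Ldhb to Ldha balance in clusters 2 and 3 and over all cells, and of the rho of Ldhb with the order over all cells was kept under each alternative run for them, while sizes moved. The Ldhb ratio from cluster 1 to 3 was 6.27 with a pseudocount of 10 TPM, 7.80 per spike-in TPM and 9.08 as a difference of mean log2 values, and from 6.89 to 7.72 when each cell was left out in turn. From cluster 1 to 2 it was 3.97 with a pseudocount of 10 TPM and from 4.53 to 5.38 with a cell left out. From cluster 2 to 3 it was 3.11 per spike-in TPM and 4.33 as a difference of mean log2 values. The last bin over the first gave 6.99, which was 7.77 per spike-in TPM, 6.30 with a pseudocount of 10 TPM and 5.83 with 3 bins. The median balance over all cells, in cluster 2 and in cluster 3 was 8.08, 8.12 and 11.6 with a pseudocount of 0.1 TPM and 3.66, 3.55 and 7.27 with 10 TPM. The rho of Ldhb with the order was 0.70 within cluster 3 and -0.027 within the 19 cells of cluster 1, which showed no trend. The counts of higher genes on the pathway list fell to 10 with a pseudocount of 10 TPM, and to 10 higher and 10 lower among genes with a mean of at least 10 TPM, where fewer genes were tested. Per spike-in TPM the higher genes numbered 27 and the lower 11, against 18 and 20 in TPM. Leaving out the later-numbered cell of each pair of like cells kept the directions of the Ldhb ratios and of the balance. The rho kept its direction too, at 0.89. The clusters and the order were not rebuilt for this. Where no construction of the alternative shows the cause, the cause was not tested. No cell kept reached 100 TPM of pregranulosa markers, so that alternative changed nothing. With no animal named, no error can be put on a mean. For genes with few reads, Hk1 and Hk2 above all, absence in a cell cannot be told from a low level.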
